A study of Mus musculus with 20 samples.

Results

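Chemokines are small secreted proteins that steer blood cells along gradients, and their receptors are membrane proteins that signal through inhibitory G proteins. In the bone marrow the receptor CXCR4 and its ligand CXCL12 hold stem and progenitor cells in their niches, CXCR2 and CCR2 direct the release of neutrophils and monocytes, and CCL3 is known as an inhibitor of stem cell proliferation. The 8 genes described here are the ligand genes Ccl3, Ccl4, Ccl9 and Ccl6 and the receptor genes Cxcr4, Cxcr2, Ccr1 and Ccr2, of 24315 genes in all. They were selected by symbol, because Ccl3 differed from wild type (WT) in LSK cells of all 3 mutant genotypes. The LSK differences of these genes between genotypes are therefore given as a description, without p-values. Which of them passed the study's thresholds in LSK is listed, but nothing is read from it. MEP libraries took no part in the choice and were tested.

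RNA was measured in LSK cells (lineage-negative, Sca1-positive and Kit-positive stem and progenitor cells) and in MEP (megakaryocyte-erythroid progenitors), both sorted from bone marrow of C57BL/6 mice. Each cell type had 10 libraries, 3 of WT, 3 of Dnmt3a-/-, 2 of Bcor-/- and 2 of Bcor-/-Dnmt3a-/- (double-mutant) mice, and LSK and MEP came from the same mice. The conditional alleles were deleted by Mx1-Cre, a recombinase driven by an interferon-inducible promoter and switched on with pIpC, so that deletion is not limited to a single blood lineage. The labels of all mutant libraries carry the word Cre, where those of WT libraries have WT in its place. As labelled, Cre and the mutations cannot be told apart in a comparison with WT. Apart from that word and the replicate number, WT and Dnmt3a-/- labels are the same, while Bcor-/- and double-mutant labels differ from them. Whether these WT mice received pIpC is not given in the sources used here. Bcor encodes a corepressor of BCL6 and of a Polycomb complex, and Dnmt3a a DNA methyltransferase. The study describes the double-mutant mice it sequenced as leukemic, while the labels give neither age nor disease stage. It describes Dnmt3a deletion in single mutants as partial and its loss in leukemic double mutants as complete. The label of 1 Bcor-/- library per cell type names 2 mice. Levels are FPKM, fragment counts scaled to transcript length and library size, which allow genes to be compared per length.

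The double-mutant libraries stood apart from each other more than other replicates did. Pearson's r between both was 0.849 in LSK and 0.815 in MEP across tested genes, against at least 0.973 and 0.971 within the other genotypes. Their sorted cells also differed from WT in cell type markers. The summed level of 9 LSK gate markers was 179 and 379 FPKM in double-mutant LSK against 1159 to 1368 in WT, and that of 9 genes of maturing erythroid cells 5349 and 20620 against 61.6 to 145.5. In double-mutant MEP, 11 granulocyte genes summed to 6951 and 15460 FPKM against 323 to 780.0 in WT, and 11 monocyte and macrophage genes to 793 and 170.0 against 10.5 to 25.5. Of the granulocyte genes, Camp, Ltf, Mmp8, Ngp, Retnlg, S100a8 and S100a9 were past the study's thresholds, given below, all higher. They were 7 of 11, where 18.5% of all tested genes were called higher. Mpo, Elane, Prtn3 and Ctsg were not past them. Bcor had 22.4 to 37.4 FPKM in the LSK genotypes labelled Bcor-/- against 29.5 to 32.4 in WT, and Dnmt3a 10.4 to 16.9 in those labelled Dnmt3a-/- against 16.1 to 19.8. In MEP, Bcor had 19.5 to 26.7 FPKM in the genotypes labelled Bcor-/- against 21.3 to 26.9 in WT. Dnmt3a had 2.56 to 6.85 FPKM in the MEP genotypes labelled Dnmt3a-/- against 5.49 to 6.64 in WT, with double-mutant replicate 1 above every WT library. The study describes the mRNA of the deleted Bcor allele as very unstable, and its PCR did not detect Bcor mRNA in LSK of Bcor-/- mice. The Bcor FPKM above show no such loss. Dnmt3a had 10.35 and 10.94 FPKM in double-mutant LSK and 6.85 and 3.435 in double-mutant MEP, which show no complete loss either. A gene's FPKM includes exons outside the deletion, and the genotype labels were not checked by other means here. The 9 MEP markers summed to 2708 to 7189 FPKM in double-mutant MEP against 4784 to 6549 in WT MEP. In bulk RNA of sorted cells, fewer cells of a type and less RNA per cell cannot be told apart.

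**Figure D1:**
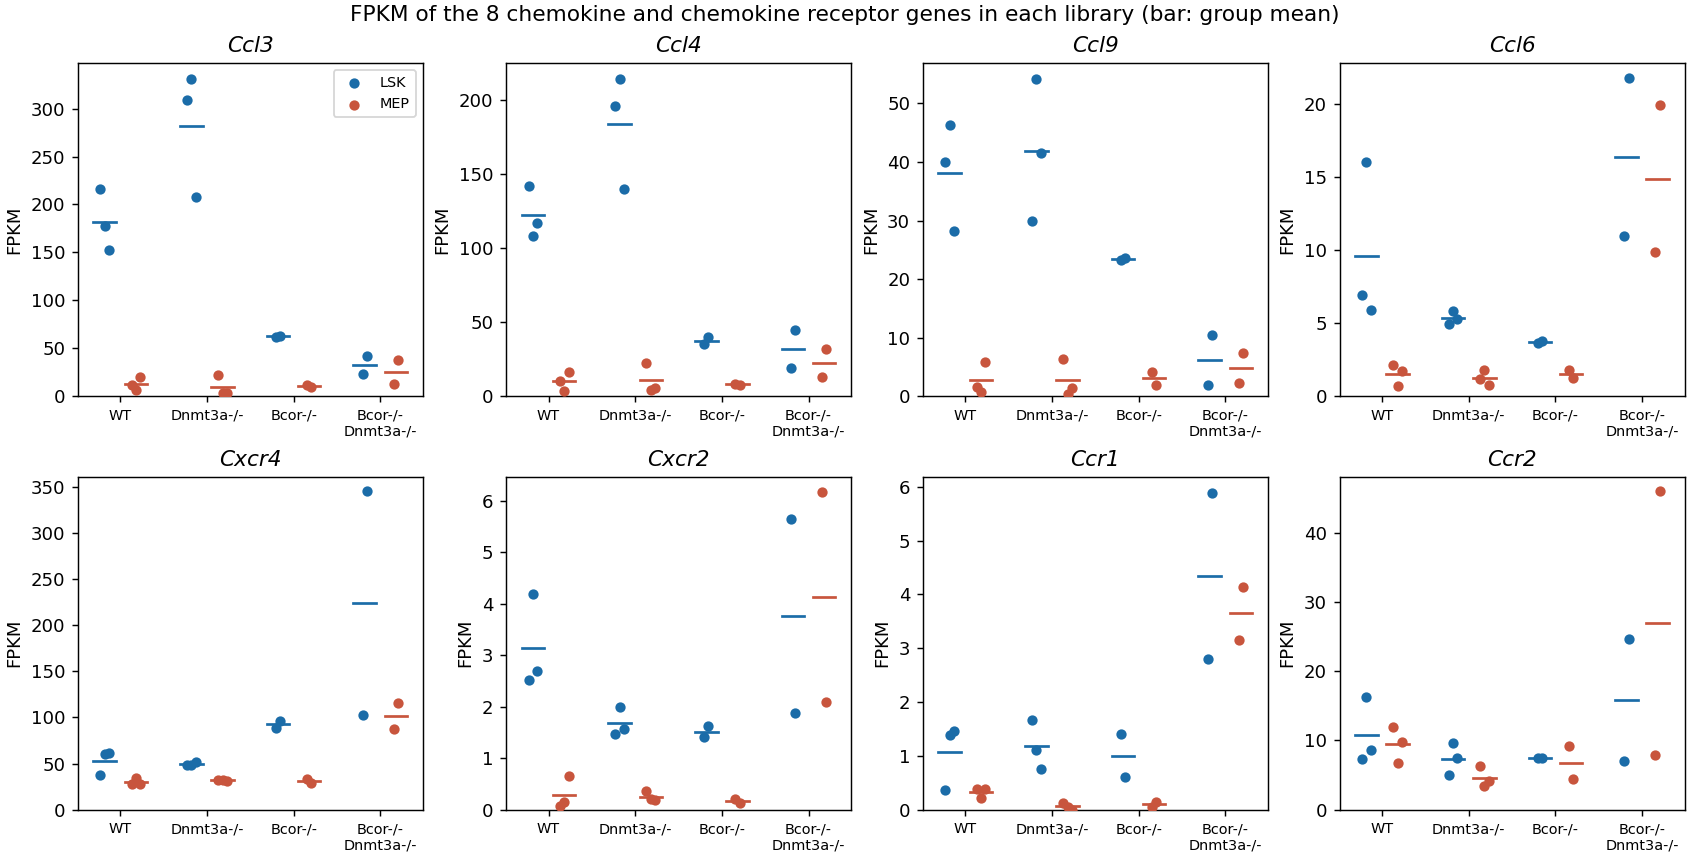
FPKM (linear axis) of the 8 genes by genotype, with 1 point per library, LSK in blue and MEP in red, and a bar for the group mean. Ccl3, Ccl4 and Ccl9 are high in WT LSK and low in double-mutant LSK, while Ccl6, Cxcr4, Cxcr2 and Ccr1 are higher in both double-mutant MEP libraries than in every other MEP library.

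The ligand genes lie next to each other on chromosome 11, in the RefSeq order Ccl5, Ccl9, Ccl6, Ccl3, Ccl4 and Wfdc17. Ccr1 and Ccr2 lie in a receptor cluster on chromosome 9, Ccr1 beside Ccr1l1 and Ccr2 beside Ccr3. On chromosome 1, Cxcr2 is next to Cxcr1, and Cxcr4 stands between Dars and Thsd7b, which encode no chemokine receptor. Ccl6 and Ccl9 are paralogs, as are neighbouring receptor genes, and reads of near-identical stretches may have been split between them. Ccl6 also lies within the span of E230016K23Rik on the opposite strand, with 0 shared exon bases, and whether counting used strand is not given in the sources used here. Promoter sequences are shown for 3 ligand genes of the cluster, of which Ccl3 and Ccl9 moved together and Ccl6 did not, and for Cxcr4, which moved the opposite way to Ccl3 in LSK. They are the 250 bases before the RefSeq start (GRCm38.p6, minus strand), namely chr11:83649379-83649628 for Ccl3, chr11:83578637-83578886 for Ccl9, chr11:83593088-83593337 for Ccl6 and chr1:128592300-128592549 for Cxcr4. Capitals mark matches on either strand to 5 motifs, which are the TATA box written as TATAAA, the GATA factor motif written as AGATAA, the AP-1 motif written as TGANTCA, the STAT type motif written as TTCNNNGAA and the NF-kB type motif, GGG and CC with any 5 bases between. Matches on opposite strands may overlap.
Ccl3: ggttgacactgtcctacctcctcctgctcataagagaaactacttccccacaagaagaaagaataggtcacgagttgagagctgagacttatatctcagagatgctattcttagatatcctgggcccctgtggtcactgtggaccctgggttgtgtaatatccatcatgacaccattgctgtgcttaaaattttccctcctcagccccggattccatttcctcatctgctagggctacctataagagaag
Ccl9: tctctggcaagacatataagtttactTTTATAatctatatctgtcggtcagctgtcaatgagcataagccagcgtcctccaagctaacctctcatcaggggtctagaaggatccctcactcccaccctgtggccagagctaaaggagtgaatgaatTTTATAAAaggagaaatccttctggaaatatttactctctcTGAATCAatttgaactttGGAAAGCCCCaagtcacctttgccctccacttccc
Ccl6: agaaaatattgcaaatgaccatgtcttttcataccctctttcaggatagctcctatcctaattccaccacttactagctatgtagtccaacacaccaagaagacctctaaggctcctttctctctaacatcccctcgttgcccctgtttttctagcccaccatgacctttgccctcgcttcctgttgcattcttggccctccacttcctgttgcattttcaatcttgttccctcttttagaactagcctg
Cxcr4: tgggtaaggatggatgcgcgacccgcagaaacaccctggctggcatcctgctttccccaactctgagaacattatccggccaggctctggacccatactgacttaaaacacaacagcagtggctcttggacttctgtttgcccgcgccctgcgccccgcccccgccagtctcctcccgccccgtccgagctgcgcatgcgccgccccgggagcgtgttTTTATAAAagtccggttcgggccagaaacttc

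RefSeq promoters were matched for 7 of the 8 genes, and Ccl4 had none. The Ccl9 window held the TATA box, AP-1 and NF-kB type motifs, whereas the windows of Ccl3 and Ccl6 held none of the 5 motifs. The Cxcr4 window held the TATA box motif on both strands, at positions -32 to -25 from the start. Of 32851 promoter windows of this length, 12.4% held the TATA box motif, 9.99% the GATA motif, 6.75% the AP-1 motif, 45.8% the NF-kB type motif and 7.02% the STAT type motif. CpG, the dinucleotide that DNMT3A methylates, occurred 2 times in each of the 3 ligand windows and 19 times in that of Cxcr4, against a median of 6 over all windows. The windows of Cxcr2, Ccr1 and Ccr2 each held 1 CpG. These matches describe the letters only, and no binding or methylation was measured here.

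In WT LSK the ligand genes Ccl3 and Ccl4 led the order of levels. The mean was 182 ± 31.7 FPKM (SD, n = 3) for Ccl3, 123 ± 17.6 for Ccl4, 53.0 ± 12.9 for Cxcr4, 38.1 ± 9.22 for Ccl9, 10.8 ± 4.86 for Ccr2, 9.64 ± 5.56 for Ccl6, 3.14 ± 0.914 for Cxcr2 and 1.07 ± 0.617 for Ccr1. The ranges of Cxcr4 and Ccl9 overlapped, as did those of Ccr2 and Ccl6, and the other neighbours in this order did not. In WT MEP the receptor Cxcr4 led with 30.0 ± 3.49 FPKM, followed by Ccl3 with 12.7 ± 6.998, Ccl4 with 10.02 ± 6.42 and Ccr2 with 9.48 ± 2.63. The ranges of Ccl3, Ccl4 and Ccr2 overlapped from each to the next. Ccl9 had 2.75 ± 2.75 FPKM and Ccl6 1.51 ± 0.747, again with overlap, while Ccr1 with 0.329 ± 0.0989 and Cxcr2 with 0.295 ± 0.321 were near the lower end of the measured range. The 2 tables were normalized separately by the authors, so levels in LSK and MEP are set side by side without a test.

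Ccl3, which encodes the ligand CCL3 of CCR1, had 216, 178 and 153 FPKM in WT LSK. It had 308, 331 and 208 FPKM in Dnmt3a-/- LSK, 62.1 and 63.1 for Bcor-/-, then 23.3 with 41.6 for double mutants. Both genotypes labelled Bcor-/- thus lay below every WT library and apart from each other, and 2 of 3 Dnmt3a-/- libraries lay above every WT library. In Bcor-/- LSK the 9 LSK gate markers summed to 883 and 599 FPKM, below the 1159 to 1368 of WT, and the 9 MEP markers to 872 and 1322 against 528 to 635. The part of these shifts in the Bcor-/- differences of Ccl3, Ccl4, Ccl9 and Cxcr4 was not tested. On the scale of log2(FPKM + 1) the difference from WT was 0.61 (standard error 0.24) in Dnmt3a-/-, -1.51 (standard error 0.27) in Bcor-/- and -2.49 (standard error 0.27) in double mutants. Without double-mutant replicate 1 the last value was -2.09, and without replicate 2 it was -2.90. The Dnmt3a-/- difference lay just inside the fold change of 1.5 that the choice of Ccl3 used.

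Ccl4, which encodes a CC chemokine that attracts monocytes and T cells, ran beside Ccl3. Its LSK levels were 142, 108 and 117 FPKM in WT, 196, 214 and 140.2 in Dnmt3a-/-, 35.0 and 40.1 for Bcor-/-, then 18.8 with 44.95 for double mutants. Here the levels of Bcor-/- fell between those of both double-mutant libraries. The log2 differences from WT were 0.56 (standard error 0.29), -1.68 (standard error 0.32) and -2.03 (standard error 0.32) in the same order of genotypes, so that the Dnmt3a-/- value lay just outside the fold change of 1.5. The last was -1.42 without double-mutant replicate 1 and -2.64 without replicate 2. The ratio of Ccl3 to Ccl4 was 1.31 to 1.64 in WT, 1.48 to 1.57 in Dnmt3a-/-, 1.57 to 1.78 in Bcor-/- and 0.927 to 1.24 in double-mutant LSK. Across the 10 LSK libraries, which share their table and scaling, Pearson's r of log2(FPKM + 1) between both genes was 0.981, and it was 0.993 over the 8 libraries outside double mutants. In MEP it was 0.932 over 10 libraries.

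**Figure D2:**
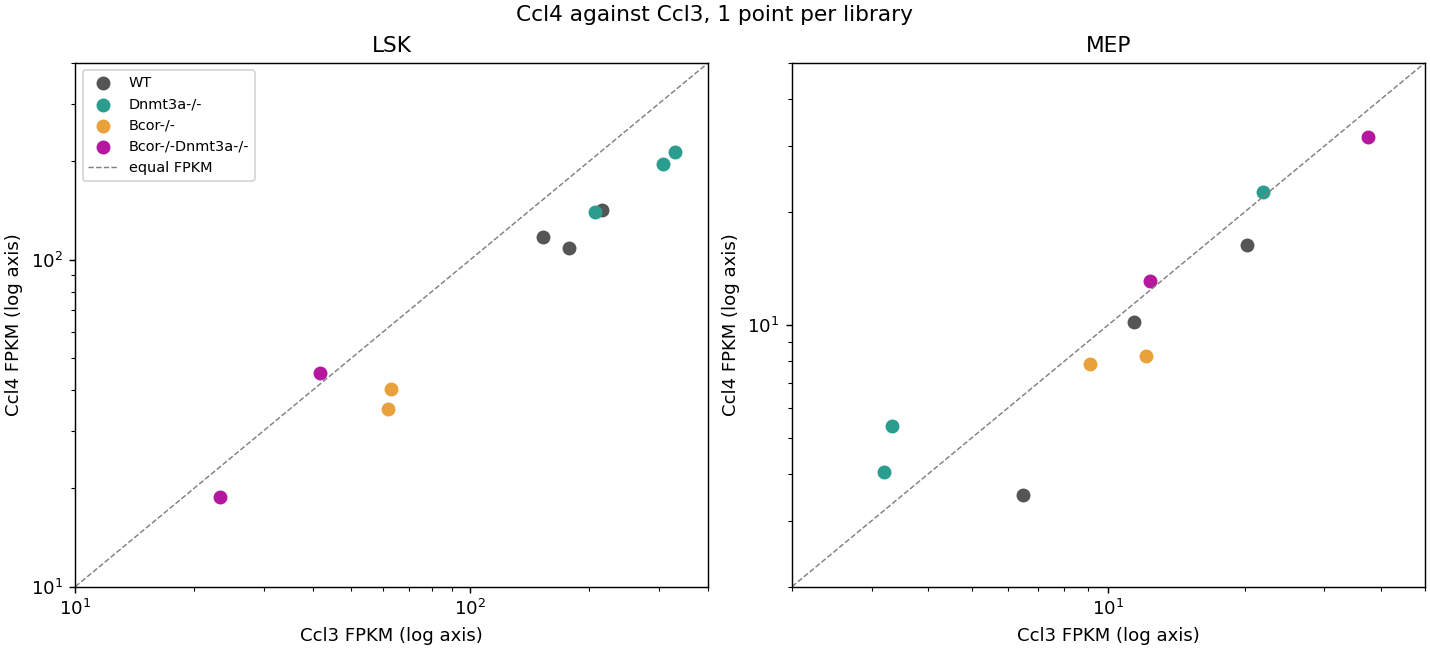
Ccl4 against Ccl3 in FPKM (log axes), with 1 point per library coloured by genotype and a dashed line where both are equal. Along the Ccl3 axis, LSK libraries run from double mutants, at 23.3 and 41.6 FPKM, over Bcor-/- to WT and Dnmt3a-/- at the upper right. In Ccl4, double-mutant LSK replicate 2 (44.95 FPKM) lies above both Bcor-/- libraries. MEP genotypes mix.

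Ccl9 encodes a ligand of CCR1. It had 39.97, 46.3 and 28.1 FPKM in WT LSK, 30.0, 54.2 and 41.5 in Dnmt3a-/-, 23.2 and 23.5 for Bcor-/-, then 1.91 with 10.5 for double mutants. Libraries of Dnmt3a-/- and WT overlapped, and those of both genotypes labelled Bcor-/- were below every WT library. The log2 difference was -0.66 (standard error 0.50) in Bcor-/- and -2.73 (standard error 0.50) in double mutants, or -1.74 without replicate 1 and -3.72 without replicate 2 of the latter. Pearson's r between Ccl9 and Ccl3 was 0.874 across the 10 LSK libraries and 0.912 across the 10 MEP libraries.

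Ccl6 encodes another CC chemokine of macrophages and neutrophils, and it took a different course from its neighbours. Its LSK levels were 6.95, 16.0 and 5.94 FPKM in WT, 4.96, 5.85 and 5.26 in Dnmt3a-/-, 3.61 and 3.79 for Bcor-/-, then 10.97 with 21.8 for double mutants. Both single mutants lay below every WT library, while double mutants overlapped WT. The log2 difference was -0.63 (standard error 0.34) in Dnmt3a-/-, -1.06 (standard error 0.38) in Bcor-/- and 0.75 (standard error 0.38) in double mutants, the last with 1.22 and 0.29 without replicate 1 and 2. The highest WT value came from WT replicate 2, which also had the highest WT sum of 11 granulocyte genes, 13420 FPKM against 3519 and 3538, and of monocyte and macrophage genes, 623 against 239 and 225. Without this library the difference was -0.23 in Dnmt3a-/- and -0.66 in Bcor-/-. The part of other cells in this value was not tested. In Bcor-/- LSK, where Ccl6 was lowest, granulocyte genes summed to 17700 and 25300 FPKM and monocyte and macrophage genes to 1010 and 1217. The granulocyte genes went both ways there. Ctsg, Elane, Mpo and Prtn3 were past the study's thresholds, given below, on the higher side and Retnlg on the lower side. Of the 11 monocyte and macrophage genes, 2 were past them, Cd14 and Ly6c2, both higher. Their part in Ccl6 was not tested.

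Among the receptors, Cxcr4, the receptor of CXCL12, had 38.1, 59.9 and 61.0 FPKM in WT LSK, 48.0, 48.4 and 51.5 in Dnmt3a-/-, 88.8 and 96.5 for Bcor-/-, then 103 with 345 for double mutants. Dnmt3a-/- libraries lay within the WT range, and every library labelled Bcor-/-, double mutants included, lay above it. The 8 B cell genes summed to 3860 and 1247 FPKM in double-mutant LSK against 45.9 to 116.1 in WT, and their part in Cxcr4 was not tested. The log2 difference was 0.82 (standard error 0.42) in Bcor-/- and 1.84 (standard error 0.42) in double mutants, with 2.71 without replicate 1 and 0.97 without replicate 2. Cxcr4 ran against Ccl3 across the LSK libraries, with a Pearson's r of -0.776 over 10 libraries and -0.906 over the 8 outside double mutants. In MEP the same r was 0.488, and -0.269 without double mutants.

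Ccr1, a receptor of CCL3 and CCL9 on myeloid cells, was low in LSK. It had 0.359, 1.40 and 1.46 FPKM in WT, 0.751 to 1.67 in Dnmt3a-/-, 1.40 and 0.600 for Bcor-/-, then 2.80 with 5.89 for double mutants, where both libraries were above all others. The log2 difference of double mutants from WT was 1.35 (standard error 0.39), 2.03 with a pseudocount of 0.1, and 0.92 without replicate 2. Cxcr2, the receptor that calls neutrophils out of the marrow, had 2.53, 4.19 and 2.70 FPKM in WT LSK. It was at 1.48 to 1.998 in Dnmt3a-/- and at 1.42 and 1.62 in Bcor-/-, below every WT library, and at 5.65 and 1.87 in double mutants, on either side of WT. Ccr2, the CCL2 receptor of monocytes and their precursors, had 7.32, 16.3 and 8.63 FPKM in WT, 5.02 to 9.64 in Dnmt3a-/-, 7.48 and 7.43 for Bcor-/-, then 6.97 with 24.6 for double mutants. All genotypes overlapped WT for Ccr2, whose highest WT value was again that of replicate 2.

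Against the thresholds of the study's methods, p under 0.05 before adjustment with a more than 1.5-fold change, Ccl3, Ccl4 and Ccl9 were lower and Cxcr4 and Ccr1 higher in double-mutant LSK, 5 of 8 genes, where 28.3% of all 11952 tested genes passed. In Bcor-/- LSK these were 3 of 8, Ccl3, Ccl4 and Ccl6, all lower, with 13.2% of all genes. In Dnmt3a-/- LSK it was Ccl3 alone, 1 of 8, with 0.443%. These comparisons chose the genes, so nothing is read from the counts.

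**Figure D3:**
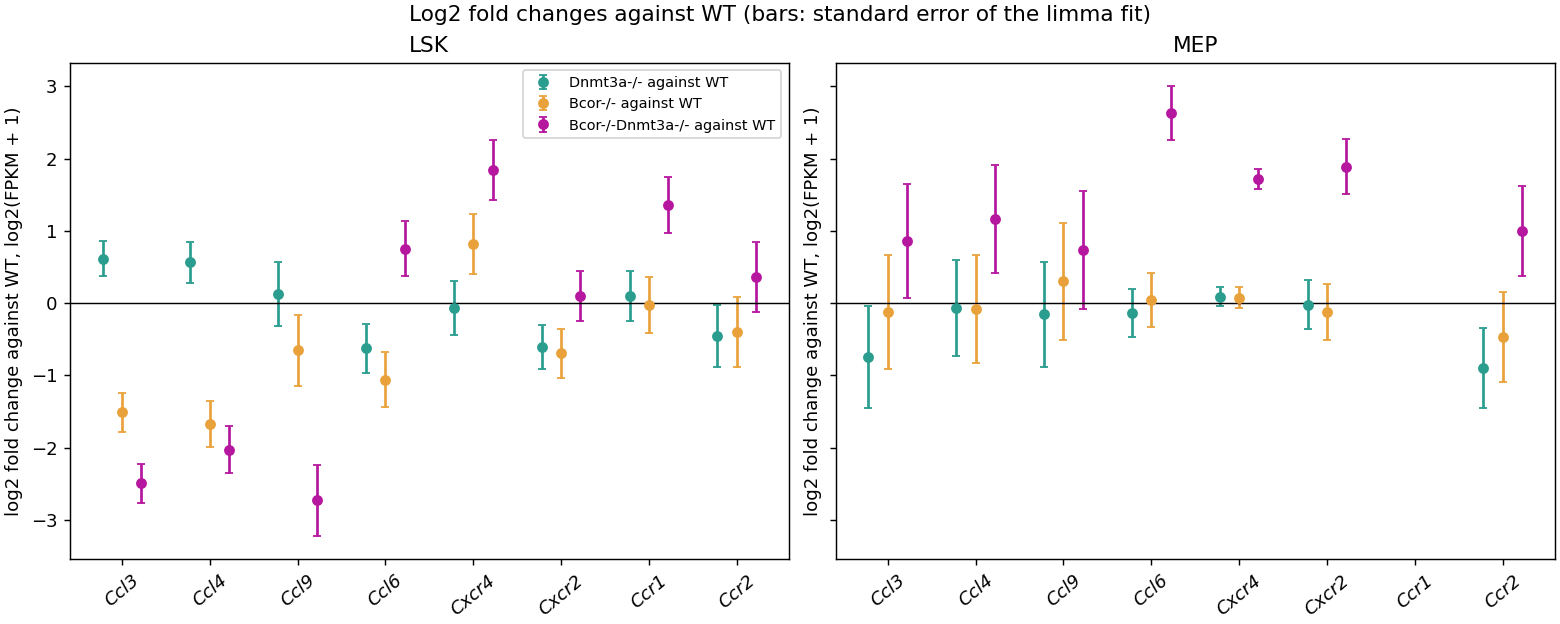
Log2 fold change against WT on the log2(FPKM + 1) scale (vertical axis) for each gene, LSK on the left and MEP on the right, with the standard error of the limma fit as bars. In LSK the ligand genes Ccl3, Ccl4 and Ccl9 are below 0 in both genotypes labelled Bcor-/-. In MEP every tested gene is above 0 in double mutants, with Ccl6 highest at 2.63. Ccr1 was below the expression minimum in MEP and has no point there.

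In MEP, the level of 2 members rose in double mutants against WT among the 6 that WT MEP express at a mean of 1 FPKM or more. These were Ccl6 and Cxcr4, and 15.7% of all genes with such a WT level were called higher. Of all 10933 tested genes, 30.9% were called in this comparison, 18.5% higher and 12.4% lower. Cxcr2 was past the thresholds as well, but it reached the minimum mean of 1 FPKM over the 10 MEP libraries only through the double-mutant libraries, with 0.247 FPKM over the other 8, and so had to differ. Ccr1 missed the minimum with 0.867 FPKM and was not tested. Adjusted p-values come from limma's two-sided test with Benjamini-Hochberg adjustment over 10933 genes, and 2 libraries against 3 cannot go below p = 0.1 in an exact permutation test.

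Ccl6 had 2.12, 0.679 and 1.74 FPKM in WT MEP, 1.21, 1.79 and 0.739 in Dnmt3a-/-, 1.82 and 1.22 for Bcor-/-, then 9.88 with 19.96 for double mutants. Both double-mutant libraries lay above all 8 others, and the other genotypes overlapped. The log2 fold change against WT was 2.63 (standard error 0.37, limma adjusted p = 0.0017). It was 3.11 without double-mutant replicate 1 and 2.16 without replicate 2. With 1 variance per genotype limma's adjusted p was 0.13, and it lay between 0.00029 and 0.13 over the alternatives.

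Cxcr4 had 28.0, 34.1 and 28.0 FPKM in WT MEP, 32.6, 32.1 and 31.1 in Dnmt3a-/-, 33.6 and 29.5 for Bcor-/-, then 87.8 with 115 for double mutants. The 8 libraries outside double mutants thus spanned 28.0 to 34.1 FPKM, against a double-mutant mean of 101.5 ± 19.3 FPKM (SD, n = 2). The log2 fold change was 1.72 (standard error 0.14, limma adjusted p = 0.00038), with 1.52 to 1.91 when each library was left out in turn. Over the alternatives, limma's adjusted p was at most 0.040. In Bcor-/- MEP the log2 difference from WT was 0.07 (standard error 0.14, limma adjusted p = 1), where Bcor-/- LSK had 0.82. Whether the genotype's effect differs between the cell types was not tested.

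Cxcr2 had 0.0717, 0.149 and 0.663 FPKM in WT MEP, 0.195 to 0.355 in Dnmt3a-/-, 0.2003 and 0.134 for Bcor-/-, then 6.16 with 2.08 for double mutants. The log2 fold change on the scale of log2(FPKM + 1) was 1.89 (standard error 0.38), given without a test because the expression minimum fixed its direction. Without either double-mutant library the gene falls below the minimum and gives no value. Ccr1 had 0.387, 0.215 and 0.386 FPKM in WT, 0.128, 0.0568 and a listed 0 in Dnmt3a-/-, 0.0541 and 0.144 for Bcor-/-, then 3.16 with 4.15 for double mutants. For both receptors the double-mutant libraries were above all others. Granulocyte genes were higher in the same libraries (6951 and 15460 FPKM in sum), as were monocyte and macrophage genes (793 and 170.0 FPKM), and their part in Ccl6, Cxcr4, Cxcr2 and Ccr1 was not tested. Between the double-mutant libraries, Cxcr2 and the monocyte and macrophage sum were higher in replicate 1, and Ccl6, Ccr1 and the granulocyte sum in replicate 2.

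The neighbours of Ccl6 did not pass the test in MEP. Ccl3 had 11.4, 6.49 and 20.3 FPKM in WT, 22.01, 3.19 and 3.33 in Dnmt3a-/-, 12.1 and 9.12 for Bcor-/-, then 12.4 with 37.5 for double mutants, a log2 difference of 0.86 (standard error 0.79, limma adjusted p = 0.43) between the last and WT. In WT, Ccl4 stood at 10.2, 3.52 and 16.4 FPKM, beside 13.1 and 31.8 in double mutants, with 1.17 (standard error 0.75, limma adjusted p = 0.25). In WT, Ccl9 stood at 1.60, 0.757 and 5.88 FPKM, beside 2.27 and 7.38 in double mutants, with 0.73 (standard error 0.82, limma adjusted p = 0.51). For all 3 each mutant genotype overlapped WT, while both double-mutant libraries lay above both Bcor-/- libraries for Ccl3 and Ccl4, a difference that did not pass the test. The spread within a genotype was wide: Dnmt3a-/- replicate 1 had 22.01, 22.6 and 6.40 FPKM of Ccl3, Ccl4 and Ccl9, against at most 3.33, 5.37 and 1.32 in the other Dnmt3a-/- replicates. LSK of the same mouse showed no such gap, with Ccl3 at 308 FPKM between 331 and 208.

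Ccr2 had 11.9, 6.70 and 9.81 FPKM in WT MEP, 6.31, 3.40 and 4.15 in Dnmt3a-/-, 9.21 and 4.38 for Bcor-/-, then 7.95 with 45.9 for double mutants. A single library set the double-mutant mean, since the log2 difference from WT of 1.0 (standard error 0.62, limma adjusted p = 0.24) became 2.195 without replicate 1 and -0.20 without replicate 2. All Dnmt3a-/- libraries were below every WT library, with a log2 difference of -0.90 (standard error 0.56, limma adjusted p = 1, with 0.71 to 1 over the alternatives). It was called at an unadjusted p of 0.0059 when only the compared genotypes were fitted in limma.

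Neither single mutant had a member called against WT in MEP by limma, with 0 of 7 in Bcor-/-, where 2.76% of all genes were called, and 0 of 7 in Dnmt3a-/-, where 0.412% were. No member had an unadjusted p under 0.05 in either comparison, and Ccr2 came nearest, with 0.14 in Dnmt3a-/- (limma). Against Bcor-/-, the double-mutant MEP differed in Ccl6, by 2.60 on the log2 scale (standard error 0.41, limma adjusted p = 0.0038), and in Cxcr4, with 1.64 (standard error 0.16, limma adjusted p = 0.00076), both higher. Called genes made up 27.9% of all in this comparison of 2 libraries with 2, and 16.5% were higher. Over the alternatives, limma's adjusted p was as high as 0.14 for Ccl6 and also for Cxcr4. Against Dnmt3a-/- the same genes were higher, with 2.77 for Ccl6 (standard error 0.37, limma adjusted p = 0.0011) and 1.63 for Cxcr4 (standard error 0.14, limma adjusted p = 0.00032), and so was Ccr2, with 1.899 (standard error 0.62, limma adjusted p = 0.041, with 0.00042 to 0.30 over the alternatives). Here 34.7% of all genes were called and 20.5% were higher. For Ccl6 limma's adjusted p was at most 0.086 over the alternatives, and for Cxcr4 at most 0.036. Cxcr2, whose difference the expression minimum fixed, was 2.01 above Bcor-/- and 1.91 above Dnmt3a-/- on the log2 scale, given without a test. The Ccr2 call was lost without double-mutant replicate 2, at 0.70. The 3 comparisons share their double-mutant libraries.

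With LSK and MEP paired by mouse label, Ccl3 was higher in LSK than in MEP in 10 of 10 pairs of libraries, 1 of them labelled with 2 mice, and the ratio of the levels differed widely between genotypes. It was 7.54 to 27.4 in WT, 14.0 to 104 in Dnmt3a-/-, 5.12 to 6.93 in Bcor-/- and 1.11 to 1.88 in double mutants. Ccl4 had ratios of 7.16 to 30.8 in WT and 1.41 and 1.43 in double mutants, Ccl9 of 4.78 to 61.2 and 0.841 to 1.42, and Ccl6 of 3.27 to 23.6 and 1.09 to 1.11. For Ccl3, Ccl4 and Ccl6 the ratios in both double-mutant mice were thus below those of every WT mouse, and so were those of Ccl9. Double-mutant MEP means of Ccl3 and Ccl4 were 24.9 and 22.5 FPKM against 12.7 and 10.02 in WT, differences that did not pass the test above. Among the receptors, the ratio of Cxcr4 was 1.36 to 2.18 in WT, 1.47 to 1.66 in Dnmt3a-/-, 2.64 to 3.27 in Bcor-/- and 1.17 to 2.996 in double mutants. Ccr2 was higher in LSK in 4 of 10 pairs.

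The pattern of Ccl3 was followed by genes of other families. Across 10 LSK libraries the highest Pearson's r with Ccl3 outside the members was that of Wwox (0.978), Pitpnc1 (0.977), Zfand5 (0.976), Gm16897 (0.974) and Lcp2 (0.974), the last encoding a signalling adaptor of blood cells. Gm16897 had 4.38 to 6.31 FPKM in WT LSK and 0.0729 and 0.293 in double mutants, and Zfand5 30.9 to 36.2 and 11.4 and 19.0. Across 10 MEP libraries these were Ccdc88b (0.969), Laptm5 (0.964), Wdfy2 (0.948), Lat2 (0.946) and Dok2 (0.943), none of them among those of LSK. Laptm5, which encodes a lysosomal protein of blood cells, had 53.9 to 99.2 FPKM in WT MEP and 93.1 and 145 in double mutants.

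Among 36 other chemokine ligand genes, 10 were tested in MEP, and 1 was called higher and 2 lower in double mutants against WT, a share near the 30.9% of all genes called. Of the 10, Cxcl2 and Cxcl12 were tested only through the double-mutant libraries. The median log2 difference was 0.10 over the list and 0.02 over all genes. Ccl5, the next ligand gene beside Ccl9 and a product of T and NK cells, rose to 115.5 and 343 FPKM from 8.66, 26.3 and 11.99, by 3.73 on the log2 scale (standard error 0.66, limma adjusted p = 0.0041). The 7 matched T and NK cell markers summed to 115 and 184 FPKM in these libraries against 39.5 to 74.0 in WT, and their part was not tested. Pf4, which encodes platelet factor 4 of megakaryocytes, fell to 7.68 and 8.09 FPKM from 199, 56.5 and 243, a log2 difference of -3.99 (standard error 0.60, limma adjusted p = 0.0021). Of 7 tested megakaryocyte and platelet genes, Pf4 among them, 3 were called lower, where 12.4% of all genes were. The others called were Gp5 and Vwf, and the part of such cells in Pf4 was not tested. Ccl17, a ligand of CCR4, was called lower with -1.13 (standard error 0.38, limma adjusted p = 0.0503), and also in Bcor-/- MEP with -1.42 (standard error 0.38, limma adjusted p = 0.41), at levels of at most 3.91 FPKM. Xcl1, a ligand of T and NK cells, was called higher against Bcor-/- with 1.95 (standard error 0.78, limma adjusted p = 0.10).

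Among other chemokine receptor genes called higher in double-mutant MEP against WT, 4 reached the minimum only through the double-mutant libraries and so had to differ. Over all tested genes, 18.5% were called higher in this comparison. Those 4 were Ccr7, the lymph node homing receptor, at 6.14 and 7.15 FPKM against 0.244 to 0.571 in WT, Cxcr5, a B cell receptor, at 3.73 and 6.88 against 0.0586 to 0.1799, Cxcr3, a receptor of activated T cells, at 3.85 and 6.37 against 0.287 to 1.10, and Ccr3, the eosinophil receptor, at 16.1 and 0.362 against 0.0472 to 0.0923. Also called higher were Cx3cr1, the monocyte receptor, with 5.59 and 1.93 FPKM against 0.599 to 1.43 in WT, and Ackr1, an atypical receptor of erythroid cells, with 5.24 and 48.2 against 2.93 to 5.95. Of these, Cx3cr1 did not overlap WT and Ackr1 did. Maturing erythroid genes summed to 3534 and 67270 FPKM in replicates 1 and 2 against 699.6 to 1214 in WT. The higher sum was in the library of higher Ackr1, although 1 of these 9 genes, Hbb-b1, was listed at 0 in that library. Eosinophil genes summed to 70.6 and 19.2 FPKM in these libraries against 1.56 to 4.50 in WT, and B cell genes to 3170 and 141 FPKM against 35.0 to 209.5, where only replicate 1 was above WT. Their part in the receptor levels was not tested.

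Of 31 tested genes of chemokine receptor signalling, 15 were called in double-mutant MEP against WT, 14 higher and 1 lower, where 30.9% of all genes were called, 18.5% higher and 12.4% lower. The median log2 difference was 0.46 over the list and 0.02 over all genes. Granulocyte genes (6951 and 15460 FPKM in sum against 323 to 780.0 in WT) and monocyte and macrophage genes (793 and 170.0 against 10.5 to 25.5) were higher in the same libraries, and their part in this list was not tested. Pik3r5, a regulatory subunit of the phosphoinositide 3-kinase that G proteins activate, rose from 1.47, 1.43 and 1.33 to 8.02 and 10.7 FPKM, by 2.09 on the log2 scale (standard error 0.27, limma adjusted p = 0.0012). Elmo1, the partner of DOCK2 in Rac activation, had 1.63 (standard error 0.52, limma adjusted p = 0.042), Lyn, a Src family kinase, 1.57 (standard error 0.25, limma adjusted p = 0.0026) and Gng2, a G protein gamma subunit, 1.52 (standard error 0.38, limma adjusted p = 0.017). Grk5, a receptor kinase, and Rac2, a blood cell GTPase, were higher against Bcor-/- by 1.38 (standard error 0.21, limma adjusted p = 0.0032) and 1.33 (standard error 0.18, limma adjusted p = 0.0020). Against Bcor-/- 13 of 31 were called, with 27.9% of all genes, and against Dnmt3a-/- 14 of 31, with 34.7%. In Bcor-/- and in Dnmt3a-/- MEP against WT, 0 of 31 were called by limma, where the shares of all genes were also low, 2.76% and 0.412%. In double-mutant LSK, for comparison, 9 of 31 were past the same thresholds higher and 7 lower, where 28.3% of all 11952 genes were past them, 1793 higher and 1590 lower.

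**Figure D4:**
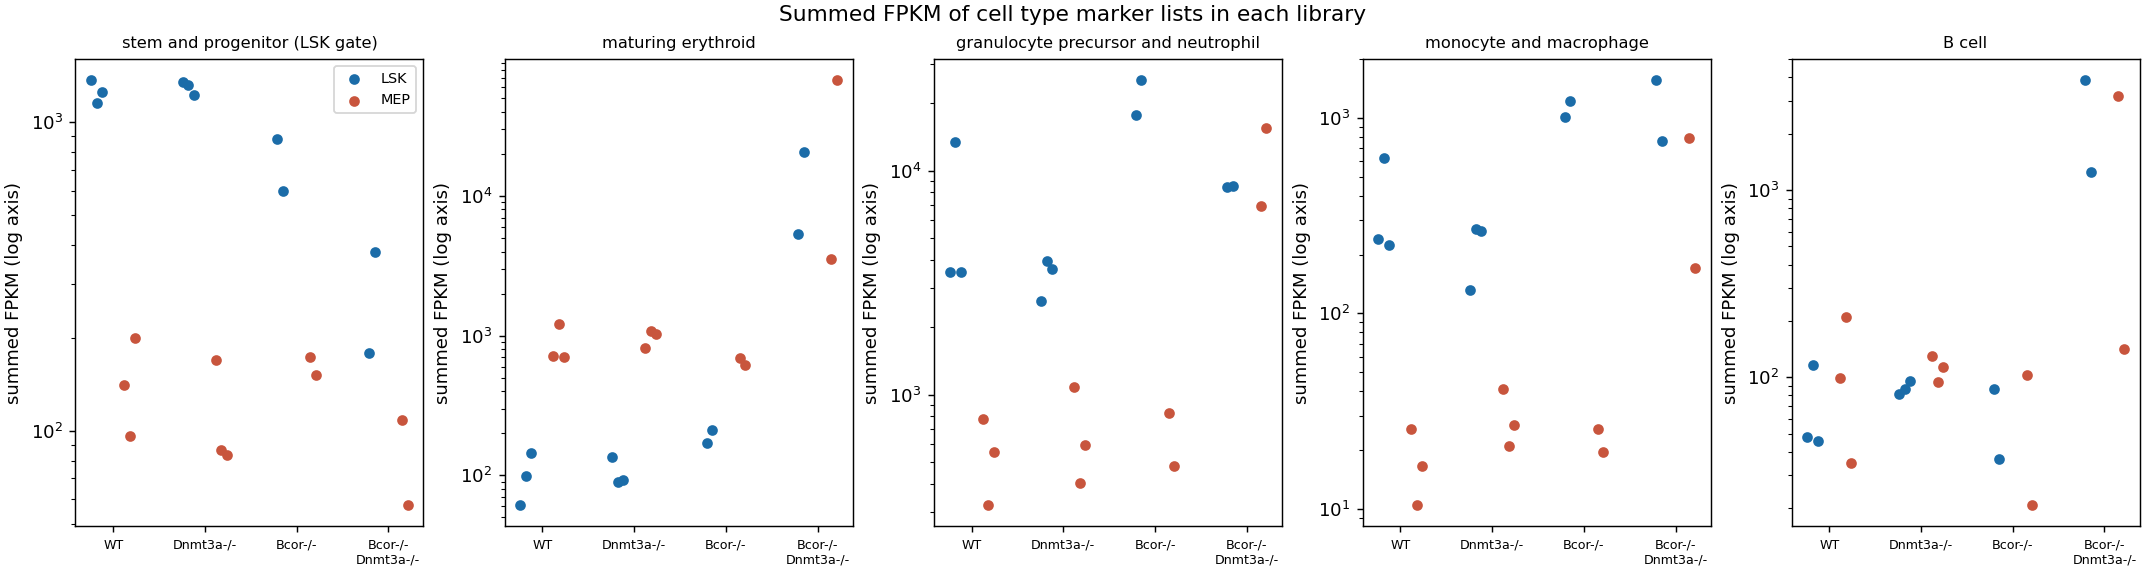
Summed FPKM (log axis) of 5 lists of cell type markers by genotype, with 1 point per library, LSK in blue and MEP in red. Stem and progenitor genes are lower in double-mutant LSK (179 and 379 FPKM) than in WT LSK, and maturing erythroid, granulocyte, and monocyte and macrophage genes are higher in both double-mutant MEP libraries than in every WT MEP library.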

How the data were processed

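The authors deposited 1 table per cell type with the FPKM of each gene in 10 libraries. The submitters' processing notes name STAR 2.5.1b, SAMtools 1.9, Cufflinks 2.2.1 and build mm9, while strandedness and annotation are not given in the sources used here. Read counts are not given; the steps of values under 0.2 FPKM put the depth at 0.79 to 1.32 (LSK) and 1 to 1.61 (MEP) times that of WT replicate 1.

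FPKM were analyzed as log2(FPKM + 1) in R 4.3.3 with limma 3.58.1 (mean-variance trend, 1 mean per genotype), separately per cell type, where a gene's 10 libraries averaged 1 FPKM or more. Calls needed p under 0.05 before adjustment and more than 1.5-fold change, as in the study's methods, which name no test. The study reports far fewer differing genes for double mutants against WT than were called here, 3383 in LSK and 3376 in MEP. The script was tested on simulated data. Members and gene lists were chosen with earlier results of these data known, and the members were picked for an LSK difference. Named genes are the members, up to 4 called genes per list and comparison without overlap, and 5 genes most similar to Ccl3 per cell type; Cx3cr1 was named after its values were seen. Some results of the receptor list are not reported here. Labels name separate mice, 2 of them in 1 Bcor-/- library per cell type. Alternatives were no filter, a 5 FPKM minimum, 0.1 as pseudocount, 2 scalings, other variance models, the compared genotypes alone, a replicate block, the adjusted p, a fold of 2 and each library left out. Figures used Python 3.11.15 and matplotlib 3.10.9.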

Additional observations from a re-analysis of the deposited data

Results flagged for a closer look

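In double-mutant mice, every LSK library lay below and every MEP library above the WT mean of log2(FPKM + 1) for 3 ligand genes. In MEP replicate 1 this margin was small, and in FPKM its Ccl3 (12.4) and Ccl9 (2.27) were below the WT means of 12.7 and 2.75. The mean difference on the log2(FPKM + 1) scale was -2.49 for Ccl3 in LSK and 0.86 in MEP, -2.03 for Ccl4 in LSK and 1.17 in MEP, and -2.73 for Ccl9 in LSK and 0.73 in MEP. In Dnmt3a-/- mice Cxcr4 likewise lay on opposite sides of the WT mean, with small differences, -0.073 in LSK and 0.091 in MEP. These differences between cell types were not tested, the LSK values chose the genes, and none of the 4 MEP differences passed limma's test.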

How the results depend on the processing

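Called values kept their direction against WT, but 2 libraries in 2 groups, an unknown depth and leukemic mice with mixed cell markers limit every comparison. Of the 708 values of members in MEP under alternatives, 668 kept direction and side of the threshold, 27 changed sign, 10 passed it newly and 3 no longer did. The numbers of called members include Cxcr2, whose difference the expression minimum fixed. With a minimum mean of 5 FPKM, the number of members called fell to 1 against WT, to 1 against Bcor-/- and to 2 against Dnmt3a-/-, because Ccl6 and Cxcr2 are then not tested. In Dnmt3a-/- against WT, 1 member, Ccr2, was called with only the compared genotypes or with 1 variance per genotype. Leaving out each library in turn gave 2 to 3 called members in double mutants against WT, 2 to 3 against Bcor-/-, 2 to 6 against Dnmt3a-/- and 0 to 1 in Dnmt3a-/- against WT. Quantile normalization shifted the median log2 difference of all genes in double mutants against WT from 0.02 to -0.17, and the calls that were higher from 2019 of 3376 to 1461 of 3738.

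With the replicate block the counts stayed at 3, 3 and 4, and Ccl4 (0.0075) and Ccl6 (-0.0024) changed sign in Bcor-/- against WT, and no call changed. To check the replicate numbers, each genotype's mean was subtracted from log2(FPKM + 1) of every gene. Between same-numbered libraries of different genotypes, Pearson's r of the remainders was -0.0585 to 0.0871 in LSK, with 0 of 13 pairs over 0.1. In MEP it was -0.193 to 0.336, with 8 of 13 over 0.1. The numbers were not taken as pairing, which needed every pair over 0.1. In Dnmt3a-/- against WT, Cxcr2 turned to 0.12 with a pseudocount of 0.1 and to 0.012 with quantile normalization. Signs also turned when a library was left out, with ranges of -0.20 to 2.195 for Ccr2 in double mutants against WT and -0.25 to 1.11 for Ccl9 in double mutants against Bcor-/-. In Bcor-/- against WT they were -0.49 to 0.26 for Ccl3, -0.62 to 0.35 for Ccl4, -0.23 to 0.22 for Ccl6, -0.13 to 0.86 for Ccl9, -0.018 to 0.16 for Cxcr4 and -0.25 to 0.072 for Cxcr2. In Dnmt3a-/- against WT they were -0.76 to 0.36 for Ccl4, -0.41 to 0.040 for Ccl6, -0.85 to 0.41 for Ccl9 and -0.14 to 0.17 for Cxcr2. The Ccr2 call against Dnmt3a-/- was lost with quantile normalization (1.49), with 1 variance per genotype and without double-mutant replicate 2. The causes were not tested.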
